A study of Homo sapiens with 6 samples.

Results

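Genes of 10 amino acid transporters of the plasma membrane were followed in HepG2.2.15, a human hepatoma line with hepatitis B virus DNA in its genome. They are SLC7A5, SLC3A2, SLC43A1, SLC1A5, SLC1A4, SLC38A1, SLC38A2, SLC38A3, SLC7A1 and SLC7A2, and they were taken by gene name from a table of 62709 genes, in which each was listed once. One group of cells received Yinqi Sanhuang Jiedu Decoction (YQSHJD), a Chinese herbal medicine, for 3 days. It was diluted from a freeze-dried powder and made up 10% of the medium. The other group was given physiological saline, which the treatment protocol names as PBS, and the share that it made up of the medium is not stated. Both groups were the same line, labelled WT, in DMEM with serum, antibiotics and G418. There were 3 libraries of polyadenylated RNA in each group, called YQSHJD 1 to 3 and saline 1 to 3. No label says that the libraries of a group came from separate cultures, so the p-values measure only the spread between these libraries, which may be technical.

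Cells take up amino acids through carriers that differ in their substrates and in what drives them. SLC7A5 joins with the heavy chain SLC3A2 (CD98) to bring in leucine and other large neutral amino acids in exchange for amino acids inside the cell, glutamine among them. SLC1A5 and the SLC38 carriers bring in glutamine and small neutral amino acids with sodium, and SLC7A1 and SLC7A2 carry arginine, lysine and ornithine. In liver these carriers supply protein synthesis, the urea cycle and glutamine metabolism, and SLC7A5 is low in adult hepatocytes and high in many hepatomas.

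Levels are FPKM, which divides the fragments of a gene by its length and by the depth of the library, so that genes can be set beside each other. Reads in genes numbered 13370372 to 15066527 in the YQSHJD libraries and 14829994 to 15615649 in the saline libraries. YQSHJD 1 stood farthest from the other libraries of its group, at a root mean square log2 distance of 0.342, against 0.233 and 0.275 for YQSHJD 2 and 3 and 0.199 to 0.216 for the saline libraries. All 8 markers of hepatocytes and hepatoma reached 1 FPKM in every library, with summed levels of 4304 to 5209 FPKM in YQSHJD and 2858 to 3123 FPKM in saline. No marker of leukocytes or fibroblasts reached 1 FPKM in every library, and among the fibroblast markers the highest value was 0.552 FPKM, for PDGFRB. Of 3 markers of endothelium, VWF was above 1 FPKM in every library, and the summed level of the list was 5.28 to 6.21 FPKM in YQSHJD and 4.88 to 5.41 FPKM in saline. VWF did not pass the test (log2 difference -0.06, limma adjusted p = 0.709). PECAM1 of the same list was low, at 1.27 ± 0.24 FPKM in YQSHJD and 0.59 ± 0.13 FPKM in saline (SD, n = 3 each, log2 difference 0.51). It reached 1 FPKM only in YQSHJD and entered the test through this group alone, so its p-value is not given.

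With YQSHJD the large neutral exchanger and its heavy chain rose as deposited, as did SLC38A1 and SLC38A2, and the sodium-dependent neutral exchangers, the cationic carriers and the facilitative carrier SLC43A1 fell. All 10 genes had at least 1 FPKM in at least 3 libraries and were tested with the 10966 genes that passed this filter. By limma on log2(FPKM + 1), 4 were higher and 5 lower at a Benjamini-Hochberg adjusted p under 0.05, where 23.3% of all tested genes were higher and 18.0% lower. The values of YQSHJD and saline did not overlap for 9 of the 10, and for 55.3% of all tested genes, with YQSHJD above in 4 of the 10 and 30.7% of all, and below in 5 of the 10 and 24.6% of all. The median log2 difference was -0.21 over the 10 carriers and 0.04 over all tested genes. In a bulk library, less RNA in each cell and fewer cells that hold it cannot be told apart.

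The scale of the libraries bears on the 4 rises. The divisor for depth in these FPKM was not the number of reads in genes. As a ratio to the reads in genes, this divisor was 0.885 to 0.923 in YQSHJD and 1.03 to 1.05 in saline. A smaller divisor gives higher FPKM for all genes of a library. Scaling by reads in genes was not tested. Summed FPKM was 422189 to 476123 in the YQSHJD libraries and 341948 to 360170 in the saline libraries. Mitochondrial genes made up 43.6% to 52.1% of it in YQSHJD and 38.8% to 43.5% in saline. Rescaling every library to the same sum moved the median log2 difference of all genes to -0.26, and by this rescaling 0 carriers were higher and 6 lower at a limma adjusted p under 0.05, where 7.88% of all tested genes were higher and 40.2% lower. With mitochondrial genes left out of the sums, an alternative chosen after seeing the data, the median was -0.12, and 2 carriers were higher and 5 lower, against 12.6% and 29.8% of all tested genes. SLC7A5 then stood at 0.55 (limma adjusted p = 0.00253) and SLC3A2 at 0.30 (adjusted p = 0.0212). Relative to the median of all genes, with equal sums over all genes, SLC7A5 stood at 0.65 and SLC1A5 at -1.07 on the log2 scale. As deposited they stood at 0.71 and -1.01. Rescaling moves all genes of a library by the same factor, so this closeness follows from the arithmetic and is no separate support. Ratios between carriers within a library do not depend on this scale and are given below.

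**Figure D1:**
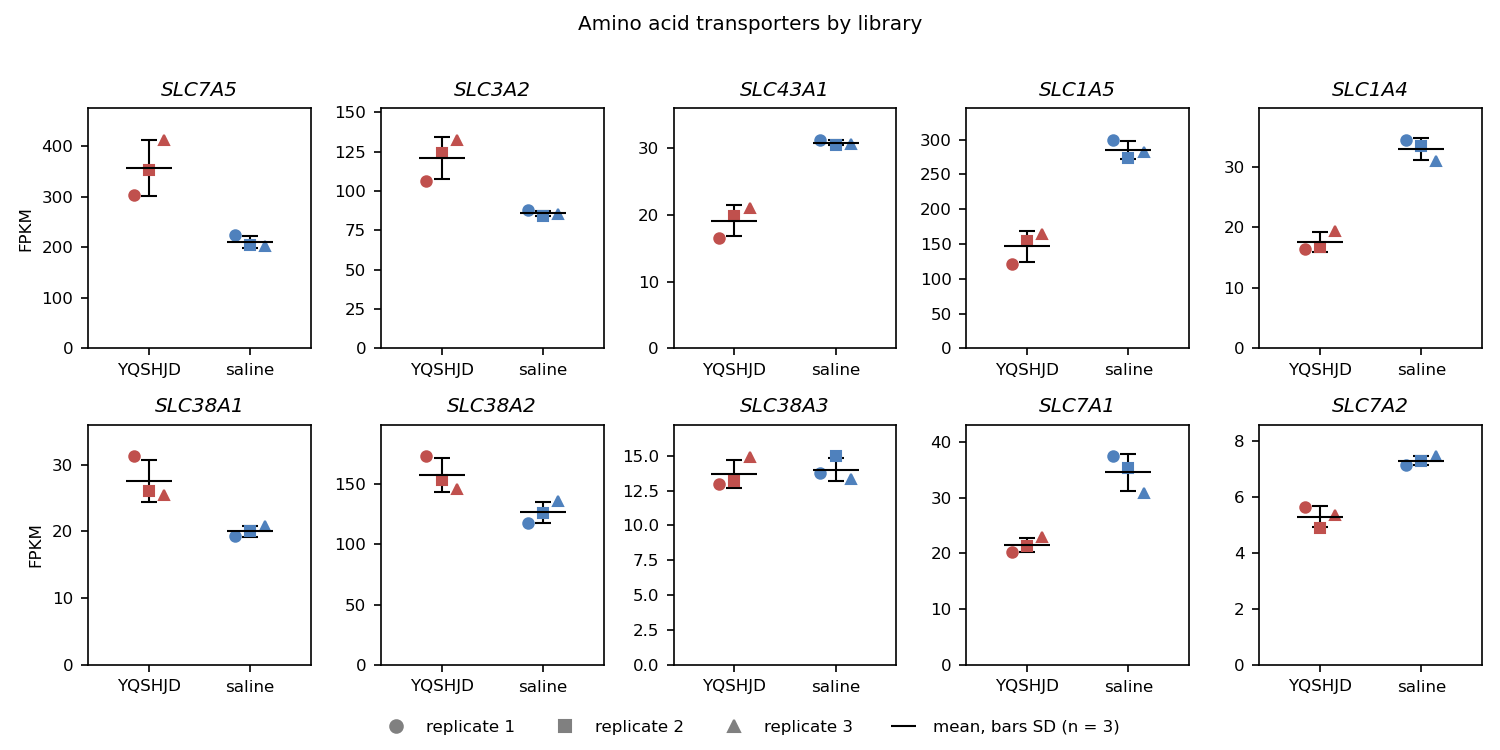
FPKM of the 10 transporters (y axis, from 0) in each YQSHJD and saline library, with the group mean and SD (n = 3). SLC7A5, SLC3A2, SLC38A1 and SLC38A2 lie higher in YQSHJD as deposited (not for SLC38A2 after rescaling to equal sums), SLC38A3 overlaps, and the other 5 lie lower in YQSHJD.

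Starvation of amino acids is known to act on several of these genes through ATF4, which binds C/EBP-ATF response elements in or near their promoters. RefSeq promoter windows on GRCh38.p14, from 250 bases before to 50 bases after a start, were at hand for 8 of the 10 genes, and the element's core TGATGNAA was searched on both strands. It was found in at least 1 window of 5 of the 8 genes, SLC3A2, SLC38A1, SLC7A1, SLC1A4 and SLC1A5, and in 4.46% of the 27305 genes with windows. Genes with several starts have several windows, 3 each for SLC3A2 and SLC1A5, so the chance of a match is not the same for every gene. The windows that hold it are shown 5′ to 3′ on the strand of the gene, with the core in capitals, because they belong to carriers that moved in opposite directions.
SLC3A2, chr11:62881449-62881748, plus strand: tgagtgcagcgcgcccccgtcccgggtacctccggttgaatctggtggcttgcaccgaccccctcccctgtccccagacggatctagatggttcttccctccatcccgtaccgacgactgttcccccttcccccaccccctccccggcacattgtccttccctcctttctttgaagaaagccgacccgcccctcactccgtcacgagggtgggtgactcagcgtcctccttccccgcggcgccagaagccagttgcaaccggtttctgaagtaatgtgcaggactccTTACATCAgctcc
SLC38A1, chr12:46266467-46266766, minus strand: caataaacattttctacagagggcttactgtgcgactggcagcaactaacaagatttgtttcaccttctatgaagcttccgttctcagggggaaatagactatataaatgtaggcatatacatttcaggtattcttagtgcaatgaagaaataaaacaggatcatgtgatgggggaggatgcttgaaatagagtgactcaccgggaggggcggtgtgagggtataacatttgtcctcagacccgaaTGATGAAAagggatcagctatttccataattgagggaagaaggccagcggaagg
SLC7A1, chr13:29595639-29595938, minus strand: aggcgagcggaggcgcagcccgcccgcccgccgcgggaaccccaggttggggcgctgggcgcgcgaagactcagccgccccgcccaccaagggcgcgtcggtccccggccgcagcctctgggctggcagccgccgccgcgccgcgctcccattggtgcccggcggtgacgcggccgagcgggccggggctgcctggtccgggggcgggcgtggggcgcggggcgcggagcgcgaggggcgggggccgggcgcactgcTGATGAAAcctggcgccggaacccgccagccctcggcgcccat
SLC1A4, chr2:64989149-64989448, plus strand: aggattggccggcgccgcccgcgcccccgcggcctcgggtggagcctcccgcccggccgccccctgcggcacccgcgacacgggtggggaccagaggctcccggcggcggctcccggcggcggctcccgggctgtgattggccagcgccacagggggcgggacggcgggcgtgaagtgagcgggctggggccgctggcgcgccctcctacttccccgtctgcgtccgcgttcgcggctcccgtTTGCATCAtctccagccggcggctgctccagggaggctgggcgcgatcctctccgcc
SLC1A5, chr19:46784765-46785064, minus strand: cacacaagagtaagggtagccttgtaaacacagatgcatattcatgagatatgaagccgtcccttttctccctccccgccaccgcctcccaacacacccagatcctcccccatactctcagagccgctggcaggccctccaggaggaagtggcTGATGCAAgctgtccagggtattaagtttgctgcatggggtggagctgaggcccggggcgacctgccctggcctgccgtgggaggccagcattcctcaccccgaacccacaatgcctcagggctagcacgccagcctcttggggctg

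Counted from the start that its window belongs to, the core begins 37 bases after it in SLC3A2 and 7 bases after it in SLC7A1. It begins 4 bases before it in SLC38A1, 7 bases before it in SLC1A4 and 97 bases before it in SLC1A5. By the deposited positions only the SLC7A1 window lies at the start of the gene. The other windows with the core belong to starts inside the gene. The windows at the gene starts of SLC3A2, SLC1A4 and SLC1A5 held no core, and SLC38A1 had no window there. SLC3A2 and SLC38A1 were higher in YQSHJD and SLC7A1, SLC1A4 and SLC1A5 lower, so a match went with no single direction. The core of the antioxidant response element, TGACNNNGC, was found on either strand in windows of SLC7A5, SLC3A2, SLC7A1 and SLC1A5, and in 16.1% of all genes with windows. The E-box CACGTG was found for SLC7A5, SLC1A5 and SLC43A1, and in 8.77% of all genes. The SLC1A5 matches to both, and the SLC3A2 match to the antioxidant core, also lay at starts inside the gene. None of these matches overlapped another in the members' windows. A match is a description of letters and does not show that a factor binds there.

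The large neutral amino acid exchanger was the carrier with the highest level in YQSHJD cells. SLC7A5 (LAT1, ENSG00000103257, chromosome 16, positions 87830023 to 87869507 of the deposited table) measured 302, 353 and 412 FPKM in YQSHJD 1, 2 and 3, against 225, 204 and 202 FPKM in saline 1, 2 and 3. Every YQSHJD library lay above every saline library, and the YQSHJD libraries were the more spread out. The means were 356 ± 55.0 FPKM in YQSHJD and 210.3 ± 12.7 FPKM in saline (SD, n = 3 each), a 1.69-fold rise. On the log2 scale it rose by 0.75 (standard error 0.12, limma adjusted p = 0.00157), and the rise rested on 18562 to 27296 reads per YQSHJD library and 14975 to 16323 per saline library. With libraries rescaled to equal sums it was 0.38 (adjusted p = 0.0747), and correction for GC content gave 1.03 (adjusted p = 5.51e-06). The pseudogenes SLC7A5P1 and SLC7A5P2 were listed at 0 in all 6 libraries.

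SLC3A2, the heavy chain that carries SLC7A5 and several other light chains to the cell surface, rose as well. It lies on chromosome 11 at 62856004 to 62888880 (ENSG00000168003). Its levels were 106, 124 and 133 FPKM in YQSHJD 1 to 3, against 87.7, 84.3 and 85.4 FPKM in saline 1 to 3. The groups did not overlap, and the saline libraries lay close together. The difference in log2 was 0.49 (standard error 0.10, limma adjusted p = 0.00512), a 1.41-fold rise, and it was 0.13 after rescaling to equal sums (adjusted p = 0.446). By FPKM the light chain stood above the heavy chain in every library. This rests on deposited lengths of 4764 bases for SLC7A5 and 6392 bases for SLC3A2. Whether the transcripts expressed here have these lengths was not tested, so the size of the ratio does not count molecules. The ratio of SLC7A5 to SLC3A2 was 2.84, 2.84 and 3.11 in YQSHJD 1 to 3, against 2.56, 2.42 and 2.36 in saline 1 to 3, with no overlap.

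SLC43A1 (LAT3), which carries branched-chain amino acids and phenylalanine by facilitated diffusion and needs no heavy chain, moved the other way. It lies on chromosome 11 at 57484534 to 57515780 (ENSG00000149150). Its levels were 16.5, 19.9 and 21.1 FPKM in YQSHJD 1 to 3, against 31.3, 30.5 and 30.7 FPKM in saline 1 to 3. All YQSHJD values lay below all saline values, 1.61-fold lower on average. The difference in log2 was -0.67 (standard error 0.10, limma adjusted p = 0.00155). Set against SLC7A5, which shares substrates with it, SLC43A1 stood at a ratio of 0.0541 ± 0.0027 in YQSHJD and 0.147 ± 0.0069 in saline (SD, n = 3 each).

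The neutral amino acid exchangers of the SLC1 family showed the largest falls among the 10 carriers, as deposited. SLC1A5 (ASCT2, ENSG00000105281, chromosome 19, 46774883 to 46788594), which exchanges glutamine, serine and alanine, measured 121, 154 and 165 FPKM in YQSHJD 1 to 3, against 299.9, 274 and 283 FPKM in saline 1 to 3. Every YQSHJD library was far below the saline libraries. The means were 147 ± 22.7 FPKM in YQSHJD and 286 ± 13.1 FPKM in saline (SD, n = 3 each), 1.95-fold lower, with a log2 difference of -0.97 and a standard error of 0.12 (limma adjusted p = 0.000449).

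SLC1A4 (ASCT1), the family member that prefers serine, alanine and cysteine, fell by a like amount from a lower level. It lies on chromosome 2 at 64988477 to 65023865 (ENSG00000115902). Its levels were 16.4, 16.8 and 19.4 FPKM in YQSHJD 1 to 3, against 34.5, 33.5 and 31.0 FPKM in saline 1 to 3. The groups did not overlap. SLC1A4 was 1.88-fold lower, with a log2 difference of -0.88 and a standard error of 0.10 (limma adjusted p = 0.000274). The ratio of SLC1A4 to SLC1A5 was 0.121 ± 0.0137 in YQSHJD and 0.116 ± 0.0063 in saline (SD, n = 3 each), and these ratios overlapped. The noncoding gene LINC02245 overlaps SLC1A4 on the opposite strand with 66 to 119 reads, against 1387 to 3644 in SLC1A4. Whether the counting used strand is not stated, so reads of overlapping bases cannot be assigned to either gene with certainty.

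The SLC38 carriers take up small neutral amino acids with sodium, and their 3 members differed in response. SLC38A1 (SNAT1, ENSG00000111371, chromosome 12, 46183063 to 46270017) measured 31.2, 26.0 and 25.4 FPKM in YQSHJD 1 to 3, against 19.2, 20.0 and 20.9 FPKM in saline 1 to 3. All YQSHJD values were above the saline values, with YQSHJD 1 the highest. The difference in log2 was 0.44 (standard error 0.10, limma adjusted p = 0.0104), 0.09 with equal sums (adjusted p = 0.477) and 0.24 with GC correction (adjusted p = 0.00834).

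SLC38A2 (SNAT2), known for its induction in cells short of amino acids, was the most abundant of these carriers. It lies on chromosome 12 at 46358188 to 46372773 (ENSG00000134294). Its levels were 173, 154 and 146 FPKM in YQSHJD 1 to 3, against 118, 126 and 136 FPKM in saline 1 to 3, close to each other at the edges. The difference in log2 was 0.31 (standard error 0.10, limma adjusted p = 0.0304), a 1.25-fold rise that did not hold under most alternatives. It was -0.046 after rescaling to equal sums (adjusted p = 0.717), 0.14 with quantile normalization (adjusted p = 0.301) and 0.10 with GC correction (adjusted p = 0.171). Without saline 1 it was 0.26 (adjusted p = 0.126), without saline 2 it was 0.31 (adjusted p = 0.0925), and without YQSHJD 2 it was 0.33 (adjusted p = 0.0656).

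SLC38A3 (SNAT3), the carrier of glutamine and histidine that hepatocytes use for both uptake and release, did not pass the test. It lies on chromosome 3 at 50205246 to 50221486 (ENSG00000188338). Its levels were 13.0, 13.2 and 14.9 FPKM in YQSHJD 1 to 3, against 13.7, 14.96 and 13.3 FPKM in saline 1 to 3. The groups overlapped, with a log2 difference of -0.03 and a standard error of 0.09 (limma adjusted p = 0.809). After rescaling to equal sums the difference was -0.37 (adjusted p = 0.028).

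The cationic carriers both fell. SLC7A1 (CAT1, ENSG00000139514, chromosome 13, 29509414 to 29595688), the widely expressed arginine and lysine carrier, measured 20.3, 21.2 and 23.0 FPKM in YQSHJD 1 to 3, against 37.4, 35.4 and 30.9 FPKM in saline 1 to 3. The groups did not overlap, although the saline libraries were spread. SLC7A1 was 1.61-fold lower, with a log2 difference of -0.66 and a standard error of 0.10 (limma adjusted p = 0.00139).

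SLC7A2 (CAT2), whose liver isoform has low affinity for arginine, had the lowest level of the 10. It lies on chromosome 8 at 17497088 to 17570573 (ENSG00000003989). Its levels were 5.64, 4.90 and 5.34 FPKM in YQSHJD 1 to 3, against 7.14, 7.27 and 7.44 FPKM in saline 1 to 3, with no overlap. It was 1.38-fold lower, with a log2 difference of -0.40 and a standard error of 0.09 (limma adjusted p = 0.0088), and rested on 462 to 587 reads per YQSHJD library and 860 to 964 per saline library. The ratio of SLC7A1 to SLC7A2 was 4.08 ± 0.41 in YQSHJD and 4.76 ± 0.55 in saline (SD, n = 3 each), and these ratios overlapped.

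By FPKM, which rests on the deposited gene lengths, the order of levels at the top changed. In YQSHJD, SLC7A5 stood first without overlap with the next carrier, and SLC38A2, SLC1A5 and SLC3A2 followed with overlapping neighbours. In saline, SLC1A5, SLC7A5, SLC38A2 and SLC3A2 came in this order and none of these neighbours overlapped. In the middle, SLC7A1, SLC43A1 and SLC1A4 overlapped their neighbours in both groups. SLC38A1 lay just above these 3 in YQSHJD, without overlap, and just below them in saline, without overlap. SLC38A3 and SLC7A2 were the lowest in both groups, each apart from its neighbours.

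The ratio of the glutamine exchanger to the leucine exchanger fell with YQSHJD, and this does not depend on how libraries are scaled. The ratio of SLC1A5 to SLC7A5 was 0.401, 0.437 and 0.400 in YQSHJD 1 to 3, against 1.33, 1.34 and 1.40 in saline 1 to 3. By FPKM SLC7A5 was thus the higher in all YQSHJD libraries and SLC1A5 the higher in all saline libraries. The order in saline rests on deposited lengths of 4764 bases for SLC7A5 and 3332 bases for SLC1A5. By reads SLC7A5 was the higher in saline as well, at 16323, 14975 and 15741 in saline 1 to 3. SLC1A5 had 15222, 14051 and 15449 reads there. Only the shift of the ratio between the groups does not depend on these lengths. In an exact two-sided permutation test the ratio of SLC1A5 to SLC7A5 gave p = 0.1 (adjusted over 6 ratios 0.15). This is the smallest p that 3 against 3 libraries allow, so the design cannot pass 0.05. The same p was found for SLC7A5 to SLC3A2, SLC38A1 to SLC38A2 and SLC43A1 to SLC7A5 by the exact test, with 0.3 for SLC7A1 to SLC7A2 and 0.7 for SLC1A4 to SLC1A5. As a share of the summed FPKM of the 10 carriers, SLC7A5 made up 40.0 ± 2.63% in YQSHJD and 24.8 ± 0.89% in saline (SD, n = 3 each). SLC1A5 made up 16.5 ± 1.28% in YQSHJD and 33.7 ± 0.66% in saline. The sum itself was 886 ± 79.1 FPKM in YQSHJD and 848 ± 22.6 FPKM in saline, and the libraries overlapped.

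**Figure D2:**
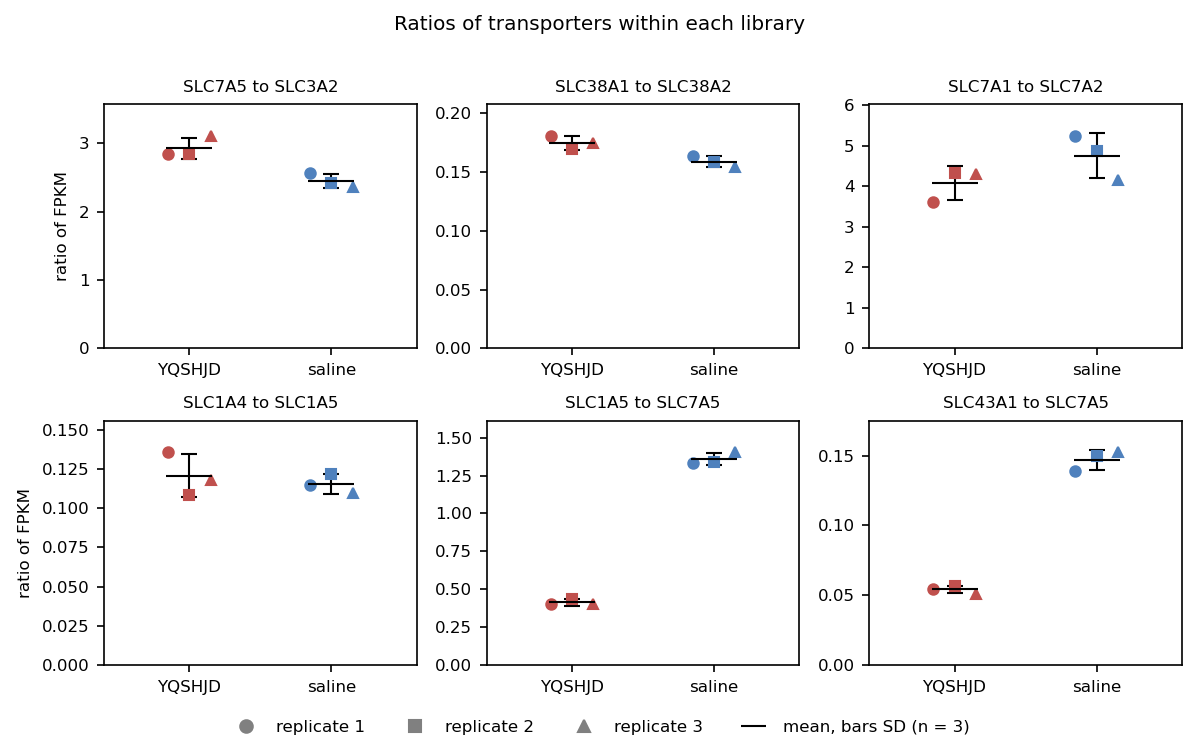
Ratios of FPKM between transporters (y axis, from 0) within each YQSHJD and saline library, with the group mean and SD (n = 3). SLC1A5 to SLC7A5 lies near 0.4 in YQSHJD and above 1.3 in saline, and SLC7A1 to SLC7A2 and SLC1A4 to SLC1A5 overlap between the groups.

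Base composition moved with the spread inside the YQSHJD group. The 3 carriers whose longest transcript had the lowest GC content, SLC38A2 at 38.1%, SLC7A2 at 41.0% and SLC38A1 at 41.3%, were highest in YQSHJD 1 among the YQSHJD libraries. The other 7 carriers, at 46.5% to 61.3%, were all lowest in YQSHJD 1. Without YQSHJD 1, 4 carriers were higher and 5 lower, as with it, where 24.0% of all tested genes were higher and 18.9% lower. SLC38A1 then stood at 0.34 (limma adjusted p = 0.0064) and SLC38A2 at 0.24 (adjusted p = 0.0323). After GC correction 3 carriers were higher and 5 lower (26.2% and 19.0% of all tested genes), and SLC38A2 was the rise that no longer passed.

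**Figure D3:**
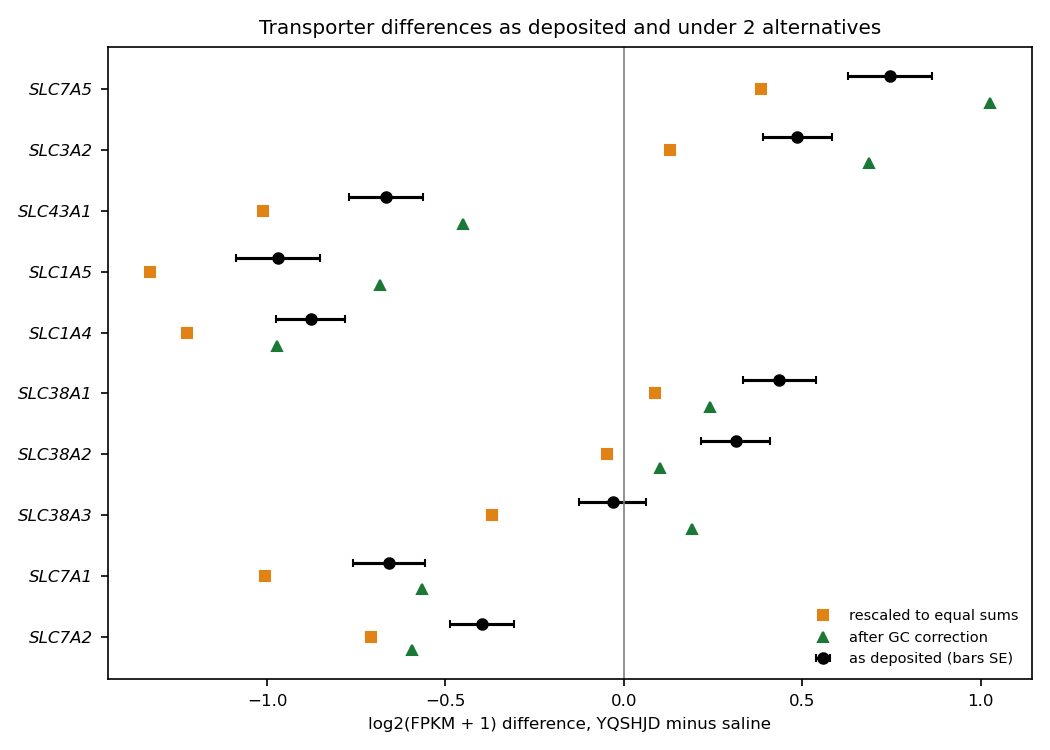
Difference in log2(FPKM + 1), YQSHJD minus saline (x axis), for each transporter as deposited with its SE, after rescaling libraries to equal sums, and after GC correction. The 5 falls stay below 0 in all 3, SLC7A5, SLC3A2 and SLC38A1 stay above 0, and SLC38A2 crosses 0 after rescaling.

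Genes that answer to amino acid shortage through the kinase GCN2 and ATF4 moved in both directions. Of 21 listed, 20 were tested, and 10 were lower, 3 higher and 7 not past the test in YQSHJD by limma, with a median log2 difference of -0.26. Over all tested genes, 18.0% were lower and 23.3% higher. After rescaling to equal sums 15 were lower and 1 higher, where 40.2% of all tested genes were lower and 7.88% higher. The largest falls were those of SHMT2, a mitochondrial enzyme of serine and glycine, at 90.0 ± 13.5 FPKM in YQSHJD and 188 ± 5.66 FPKM in saline (SD, n = 3 each, log2 difference -1.07, adjusted p = 0.000251), and DDIT4, an inhibitor of mTORC1, at 55.3 ± 5.17 FPKM in YQSHJD and 116 ± 5.68 FPKM in saline (log2 difference -1.06, adjusted p = 9.93e-05). PHGDH and PSAT1, enzymes of serine synthesis, had log2 differences of -0.88 and -0.67. ATF4 itself measured 241 ± 18.2 FPKM in YQSHJD and 289 ± 7.80 FPKM in saline, a log2 difference of -0.26 (limma adjusted p = 0.035), which was -0.08 after GC correction (adjusted p = 0.369) and -0.25 without saline 1 (adjusted p = 0.124). It also missed 0.05 without saline 2 (adjusted p = 0.123), saline 3 (adjusted p = 0.0624) and YQSHJD 3 (adjusted p = 0.0668). After rescaling to equal sums ATF4 stood at -0.62 (limma adjusted p = 0.00258), where the median of all tested genes was -0.26. The 3 genes that rose were chosen here after their values were seen. They were ATF3, a stress-induced transcription factor, at a log2 difference of 1.00 (limma adjusted p = 0.0012), EIF2S1, the initiation factor subunit that GCN2 phosphorylates, at 0.60 (adjusted p = 0.00717), and EIF2AK4, which encodes GCN2 itself, at 0.45 (adjusted p = 0.0106). Asparagine synthetase, ASNS, a standard target of this response, was listed at no more than 0.63 FPKM and was not tested.

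Among the other amino acid carriers of the plasma membrane, 15 of 35 were tested, and 7 were higher and 4 lower in YQSHJD (23.3% and 18.0% of all tested genes). SLC38A4 among the higher and SLC38A8 among the lower passed the filter only through the group where they are high. Their median log2 difference was 0.24. After rescaling to equal sums 2 were higher and 7 lower (7.88% and 40.2% of all tested genes). When a library was left out, the filter was applied again to the rest and still asked for 1 FPKM in 3 libraries. SLC38A8 was therefore not tested without a saline library, nor SLC38A4 without a YQSHJD library. Part of the drop in the counts below is genes that were no longer tested. Without saline 1 the counts were 3 higher and 2 lower (14.9% and 10.3% of all tested genes), as without saline 2 (16.1% and 11.9%). Without YQSHJD 2 the counts were 3 higher and 4 lower (17.1% and 14.5% of all tested genes). Without YQSHJD 3 they were 4 higher and 4 lower (23.6% and 20.5%), and without saline 3 they were 4 higher and 3 lower (19.1% and 13.0%). SLC6A14, a carrier of neutral and cationic amino acids, measured 19.3, 23.6 and 22.7 FPKM in YQSHJD 1 to 3, against 57.6, 64.7 and 67.7 FPKM in saline 1 to 3 (log2 difference -1.49, limma adjusted p = 3.39e-05). This 2.90-fold fall was larger in size than that of any of the 10 carriers. SLC6A9, a glycine carrier, fell 2.38-fold to 5.54 ± 1.24 FPKM in YQSHJD, against 13.2 ± 0.92 FPKM in saline (log2 difference -1.14, adjusted p = 0.000562). The taurine carrier SLC6A6 rose 1.71-fold, at 14.8 ± 1.11 FPKM in YQSHJD and 8.65 ± 0.74 FPKM in saline (log2 difference 0.71, adjusted p = 0.000895).

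Relatives of the 10 carriers ranged from levels above some of them to values near 0. SLC38A5, another carrier of the SLC38 family, chosen here after its value was seen, measured 23.7 ± 3.01 FPKM in YQSHJD and 26.7 ± 1.32 FPKM in saline (SD, n = 3 each, log2 difference -0.17, limma adjusted p = 0.238). SLC38A4, the liver member of the SLC38 family, measured 2.73, 1.62 and 1.79 FPKM in YQSHJD 1 to 3, against 0.808, 0.612 and 0.530 FPKM in saline 1 to 3 (log2 difference 0.87). This rested on 80 to 146 reads per YQSHJD library and 36 to 51 per saline library. SLC38A8 held 1, 3 and 4 reads in YQSHJD 1 to 3, against 41, 40 and 40 in saline 1 to 3 (log2 difference -1.06). SLC38A4 reached 1 FPKM only in YQSHJD and SLC38A8 only in saline. Each thus entered the test through the group where it is high, and their p-values are not given. SLC7A11, the light chain of the cystine and glutamate exchanger and a partner of SLC3A2, had a log2 difference of 0.31 (limma adjusted p = 0.046), and SLC7A6, another partner, one of 0.30 (adjusted p = 0.0311). Their calls were lost after GC correction, at 0.08 for SLC7A11 (adjusted p = 0.394) and 0.22 for SLC7A6 (adjusted p = 0.0607), and SLC7A6 stood at -0.023 after rescaling to equal sums (adjusted p = 0.862). Both calls were also lost without saline 1, saline 2, saline 3 or YQSHJD 2, SLC7A11 without YQSHJD 1 (adjusted p = 0.0769) and SLC7A6 without YQSHJD 3 (adjusted p = 0.0581). SLC7A7 and SLC7A8, light chains of the same heavy chain, were listed at no more than 0.091 and 0.168 FPKM and were not tested.

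Enzymes that use the transported amino acids held 7 higher and 0 lower of 13 tested, where 23.3% of all tested genes were higher and 18.0% lower. Their median log2 difference was 0.22. After rescaling to equal sums 2 were higher and 4 lower, where 7.88% of all tested genes were higher and 40.2% lower. The rise of GLUL passed under all 21 alternatives. GLUL, which makes glutamine, measured 70.6, 76.8 and 71.5 FPKM in YQSHJD 1 to 3, against 37.7, 34.8 and 35.3 FPKM in saline 1 to 3 (log2 difference 1.00, limma adjusted p = 6.49e-05). GLUD1, which passes glutamate on to the citric acid cycle, had a log2 difference of 0.42 (limma adjusted p = 0.00501), and AMD1 of polyamine synthesis one of 0.57 (adjusted p = 0.0106), and after rescaling these were 0.07 (adjusted p = 0.541) and 0.23 (adjusted p = 0.145). BCKDHA, a subunit of the enzyme complex for branched-chain keto acids, was listed at no more than 0.0745 FPKM, and values near 0 in this table are given only as listed.

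Proteins that bind or remove the carriers held 3 higher and 1 lower of 6 tested (23.3% and 18.0% of all tested genes), with a median log2 difference of 0.47. After rescaling to equal sums 2 were higher and 1 lower (7.88% and 40.2% of all tested genes). NEDD4L, a ubiquitin ligase that acts on membrane transporters and channels, measured 6.01, 5.63 and 5.30 FPKM in YQSHJD 1 to 3, against 1.83, 1.71 and 1.66 FPKM in saline 1 to 3 (log2 difference 1.28, limma adjusted p = 3.54e-05). LGALS3, a galectin that binds CD98, rose 2.26-fold (log2 difference 1.14, adjusted p = 6.28e-05). LAPTM4B, which recruits SLC7A5 and SLC3A2 to lysosomes, had a log2 difference of 0.57 (adjusted p = 0.00266), which was 0.22 after rescaling to equal sums (adjusted p = 0.0824). BSG, a chaperone of other carriers, fell by 0.53 on the log2 scale (adjusted p = 0.0103), by 0.24 after GC correction (adjusted p = 0.011), and did not pass without the filter on low values (adjusted p = 0.0577).

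Most genes that sense amino acids for the kinase complex mTORC1 did not pass the test, as for all tested genes, of which 41.4% passed. Of 27 listed, 22 were tested, and 8 were higher and 1 lower in YQSHJD by limma, with a median log2 difference of 0.06. Over all tested genes, 23.3% were higher and 18.0% lower. But 1 was higher and 9 lower after rescaling to equal sums, where 7.88% of all tested genes were higher and 40.2% lower. Without saline 2, 3 were higher and 0 lower (16.1% and 11.9% of all tested genes). Without saline 1, 5 were higher and 0 lower (14.9% and 10.3% of all tested genes), as without saline 3 (19.1% and 13.0%). Without YQSHJD 2, 6 were higher and 0 lower (17.1% and 14.5% of all tested genes). RRAGA, a small GTPase that recruits mTORC1, measured 134 ± 5.35 FPKM in YQSHJD and 93.4 ± 4.35 FPKM in saline (SD, n = 3 each, log2 difference 0.52, limma adjusted p = 0.00148), and 0.16 after rescaling (adjusted p = 0.146). LAMTOR3, a subunit of its anchor, had a log2 difference of 0.67 (adjusted p = 0.00671). Of 5 tested lysosomal amino acid carriers, SLC38A9, the arginine sensor, was higher by 0.55 on the log2 scale (limma adjusted p = 0.00541) and the other 4 did not pass. SLC38A9 was 0.28 after rescaling to equal sums (adjusted p = 0.0597).

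**Figure D4:**
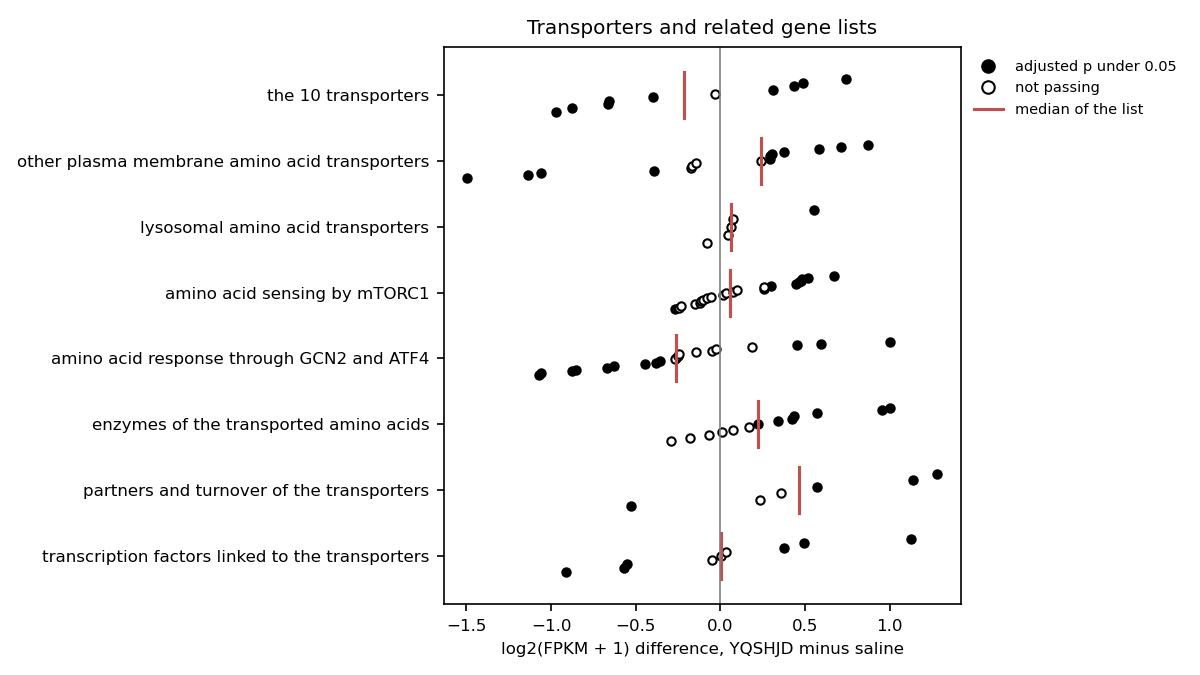
Difference in log2(FPKM + 1), YQSHJD minus saline (x axis), for each tested gene of the 10 transporters and of 7 related lists, with filled points for a limma adjusted p under 0.05 and a line at each list's median. The 10 transporters lie on both sides of 0, from -0.97 to 0.75.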

How the data were processed

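Polyadenylated RNA of 6 libraries, 3 with YQSHJD and 3 with saline, was sequenced after an Illumina TruSeq kit, per the labels' protocols. The values are FPKM, deposited by the authors in 1 table with gene lengths. CASAVA 2.19 is named in the submitters' processing notes, but the sources used here name no aligner, counter, strand setting, genome build or annotation. The gene length column, of another kind of unit, is in bases as deposited. There were 6 columns of values that match no sample, which were not used, and 1 emptied line. FPKM times gene length was a whole number of steps, of a size fixed in each library, for 100% of positive values (tolerance 0.01 reads), and these steps are the read numbers given. Reads without molecular identifiers are not independent molecules.

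The filter kept genes that reached 1 FPKM in 3 or more libraries, and log2(FPKM + 1) was tested with limma 3.58.1 in R 4.3.3 (two-sided, intensity trend, robust prior). The p-values were adjusted by Benjamini-Hochberg over all tested genes, with a threshold of 0.05. The test was tried on simulated data. Log2 differences include the pseudocount of 1 and understate changes of low genes; folds are ratios of mean FPKM. For GC correction, log2 values were fitted by loess (span 0.5) in each library to GC content and the fit was subtracted; GC content came from the longest transcript of each gene in GENCODE and was at hand for 98.6% of the genes. Named genes were the 10 members, up to 4 genes of smallest p in each related list, and 12 genes set by name; some that this rule names are not reported here. The members and lists were chosen with earlier results of these data known. Samples with the same number did not deviate together, so the numbers were not used to pair them.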

Additional observations from a re-analysis of the deposited data

How the results depend on the processing

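The 5 falls, of SLC1A5, SLC1A4, SLC7A1, SLC43A1 and SLC7A2, kept their direction and passed under all 21 alternatives, with log2 differences from -1.33 to -0.35. Over all tested genes, 5.08% (no filter) to 40.2% (equal sums) were lower under these alternatives. The number of carriers called higher was 4 as deposited (23.3% of all tested genes) and 0 after rescaling to equal sums (7.88%). It was 2 at an adjusted p of 0.01 (12.7% of all tested genes). It was also 2 when the equal sums left out mitochondrial genes (12.6%), an alternative chosen after seeing the data. Leaving out each library in turn gave 3 to 4 higher and 5 lower carriers. Of all tested genes, 14.9% to 24.0% were then higher and 10.3% to 20.5% lower. After rescaling to equal sums the log2 difference of SLC38A2 turned to -0.046 and that of SLC7A6 to -0.023. That rescaling moved the split over all genes to 873 higher and 4454 lower (2559 higher and 1977 lower as deposited). Median-of-ratios scaling gave 3 higher and 5 lower carriers, where 2166 of all tested genes were higher (19.8%) and 2310 lower (21.1%). No filter gave 1606 higher and 1351 lower genes, and a limit of 0.01 gave 1392 higher and 1090 lower. Array weights called 4142 higher and 3236 lower genes, and without saline 1 the counts were 1593 higher and 1105 lower. With the replicate block 3 carriers were higher and 5 lower (18.4% and 15.4% of all tested genes), with SLC38A2 at 0.31 (limma adjusted p = 0.0799). GC correction with the block gave the same counts of carriers (23.9% and 17.0% of all tested genes). Deviations from the group means correlated between same-numbered libraries at -0.245, -0.112 and -0.0402, so the numbers do not pair them. The cause of these shifts was not tested, other than by leaving mitochondrial genes out of the sums. In the YQSHJD libraries, read numbers were lowest for SLC7A2, at 462 to 587.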

Other observations

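Transcription factors linked to these carriers held 3 higher and 3 lower of 9 tested in YQSHJD by limma (23.3% and 18.0% of all tested genes). Their median log2 difference was 0.01. After rescaling to equal sums 1 was higher and 5 lower, where 7.88% of all tested genes were higher and 40.2% lower. HIF1A, the oxygen-regulated factor, measured 110.8, 79.9 and 73.6 FPKM in YQSHJD 1 to 3, against 37.5, 40.2 and 39.8 FPKM in saline 1 to 3 (log2 difference 1.13, limma adjusted p = 0.00059). EPAS1, the related factor known to act on SLC7A5 in other cells, measured 54.3, 60.4 and 57.7 FPKM in YQSHJD 1 to 3, against 116, 109.6 and 102 FPKM in saline 1 to 3 (log2 difference -0.91, adjusted p = 0.000144). These factors moved in opposite directions, with no overlap between the groups for either. MYC, a factor known to act on SLC7A5 and SLC1A5, measured 13.0 ± 1.88 FPKM in YQSHJD and 13.4 ± 0.95 FPKM in saline (SD, n = 3 each, log2 difference -0.05, limma adjusted p = 0.754), and -0.39 after rescaling (adjusted p = 0.0483). TFEB, a factor of lysosomal genes, fell by 0.55 on the log2 scale (limma adjusted p = 0.00451).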
